A study of Mus musculus with 4 samples.

Results

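The DLX and MSX genes encode homeodomain transcription factors, and 7 of them were followed here in mouse ST2 cells after low-intensity pulsed ultrasound (LIPUS): Dlx1, Dlx2, Dlx3, Dlx5, Dlx6, Msx1 and Msx2. The members were chosen by name from the array annotation, which gave them 10 probe sets, out of 18193 genes and 45101 probe sets in all. The choice was not blind to the values: Dlx2 was picked out because its signal dropped between the 1 h and the 3 h array. The values of Dlx2 on those arrays are therefore given as a description, and every comparison that uses either array shares a value with that choice. ST2 is an established stromal line with fibroblast-like shape, taken from the bone marrow of a BALB/c mouse and grown without a transgene or deletion named in the labels. RNA of each group was read on a single Affymetrix Mouse Genome 430 2.0 array. Precision is limited by that number, and no spread between cultures was measured. The control array held cells kept at 37 °C with no ultrasound named. The other 3 arrays held cells given LIPUS for 20 min at 25 mW per square cm and then returned to culture for 0.5, 1 or 3 h. All 4 groups shared the same medium with 10% serum. The labels name no separate culture, passage or harvest time for any array.

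As background, DLX and MSX proteins bind DNA through a homeodomain and often meet at the same AT-rich sites, where DLX proteins mostly activate and MSX proteins mostly repress transcription. Mouse DLX genes lie in pairs that are transcribed towards each other and share enhancers, Dlx1 with Dlx2, Dlx3 with Dlx4 and Dlx5 with Dlx6. Bone morphogenetic proteins (BMPs) are known inducers of Msx1, Msx2, Dlx3 and Dlx5 in skeletal and craniofacial mesenchyme. In the osteoblast lineage, DLX3 and DLX5 act on genes of matrix formation, and MSX2 holds progenitors back from differentiation or lets them grow. Dlx1 and Dlx2 are best known from the pharyngeal arches and from forebrain interneurons.

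The table of RefSeq promoters held entries for 4 of the 7 genes, and 3 are shown because Dlx2 carried the largest change among the members, Dlx1 is its paired neighbour, and Msx1 varied little. Each line gives the 250 bases before the start site on the strand of the gene, 5′ to 3′, in GRCm38.p6. The Dlx2 stretch is chr2:71546755-71547004 on the minus strand, the Dlx1 stretch chr2:71529195-71529444 on the plus strand, and the Msx1 stretch chr5:37824586-37824835 on the minus strand. Capitals mark matches to 5 motifs on either strand. CACGTG is an E-box. The CCAAT box is read as such or in reverse. TGACG is the core of a cyclic AMP response element. TAATT is a core that homeodomains bind. GGCGCC is a GC-rich site of SMADs activated by BMPs.
Dlx2: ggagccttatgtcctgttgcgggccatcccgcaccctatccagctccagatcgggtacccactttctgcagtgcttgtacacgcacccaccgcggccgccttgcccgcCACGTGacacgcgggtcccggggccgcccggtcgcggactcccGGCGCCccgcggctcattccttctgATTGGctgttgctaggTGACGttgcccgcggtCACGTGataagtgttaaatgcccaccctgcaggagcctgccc
Dlx1: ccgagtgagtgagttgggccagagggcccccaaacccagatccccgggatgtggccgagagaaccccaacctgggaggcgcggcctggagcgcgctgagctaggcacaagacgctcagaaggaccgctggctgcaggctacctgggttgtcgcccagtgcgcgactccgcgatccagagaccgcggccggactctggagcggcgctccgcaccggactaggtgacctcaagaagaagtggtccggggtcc
Msx1: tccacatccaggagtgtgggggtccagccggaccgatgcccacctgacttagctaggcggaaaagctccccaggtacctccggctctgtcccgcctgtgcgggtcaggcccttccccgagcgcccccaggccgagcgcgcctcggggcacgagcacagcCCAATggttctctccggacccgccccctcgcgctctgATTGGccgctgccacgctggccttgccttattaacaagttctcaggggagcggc

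The Dlx2 stretch held 2 copies of CACGTG, at −142 to −137 and −42 to −37 from the start site, 1 CCAAT box, 1 TGACG and 1 GGCGCC. Of 32851 promoter stretches of the same length, 6.02% held CACGTG and 0.429% held 2 or more copies. A CCAAT box stood in 33.8% of them, TGACG in 17.8%, TAATT in 25% and GGCGCC in 9.59%. The Dlx1 stretch held none of the 5 motifs, and the Msx1 stretch held 2 CCAAT boxes. The Msx2 stretch, not printed, held 3 matches to TAATT, of which the first 2 overlap, 1 CCAAT box and 1 TGACG. Neither TGANTCA, the site of AP-1 factors, nor GAANNTTC, a heat shock element, nor TATAAA occurred in any of the 4 stretches, against 6.75%, 6.69% and 12.4% of all stretches. Each CACGTG is also a match to the looser E-box CANNTG, which 66.2% of stretches held. The stretches of Dlx1, Dlx2 and Msx1 were 68%, 66.4% and 68% G or C, against a median of 52.4%. These are matches of letters in a short window, not measured binding sites.

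Of the 7 genes, 5 gave a signal above a floor of log2 5.23 on all 4 arrays, 1 on some arrays and 1 on none. The floor is the median of all deposited values, and a signal at or under it was treated as not measured. For comparison, 11685 of the 18193 genes, 64.2%, were above the floor on at least 1 array. Dlx1, Dlx2, Dlx3, Dlx5 and Msx1 were above it throughout, Msx2 crossed it, and Dlx6 lay under it. In whole cultures such as these, fewer cells making a transcript and less transcript per cell cannot be told apart. Signals of different probe sets are not comparable with each other, so the genes are not ranked by level.

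**Figure D1:**
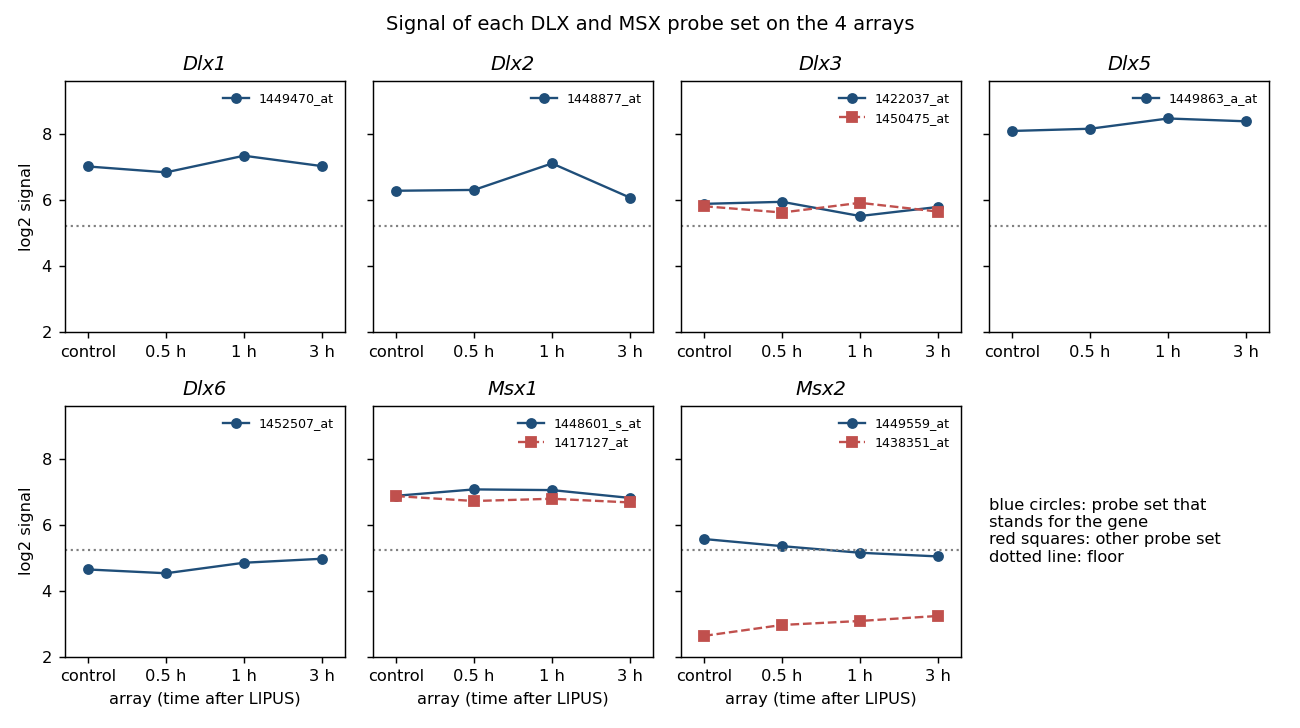
Log2 signal (vertical axis) of each DLX and MSX probe set on the control array and on the arrays 0.5, 1 and 3 h after LIPUS, 1 array per point, with the floor at log2 5.23 as a dotted line. Dlx2 stands highest at 1 h, at 7.11, the 2 probe sets of Dlx3 run opposite ways at 1 h, and Dlx6 stays under the floor.

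Dlx2, which encodes an activator of arch and forebrain genes, was level at first, higher at 1 h and lowest at 3 h. Its single probe set, 1448877_at, had a log2 signal of 6.28 on the control array, 6.30 at 0.5 h, 7.11 at 1 h and 6.07 at 3 h. The 1 h array thus stood apart, and the other 3 lay within 0.23 of each other. Relative to the control the log2 ratio was 0.03 at 0.5 h, 0.83 at 1 h, or 1.77-fold, and −0.21 at 3 h. From 0.5 h to 1 h the log2 ratio was 0.80, or 1.74-fold, rank 12 from the highest of 11507 genes. From 1 h to 3 h Dlx2 fell by 1.04 on the log2 scale, or 2.05-fold, rank 10 from the lowest of 11494 genes.

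The fall of Dlx2 sat at the edge of the 2-fold rule, a log2 ratio of at least 1 in size, which stands in for a test because there was 1 array per group. It was the smallest of the 10 falls past the rule from 1 h to 3 h, next to Dedd2 at −1.32 inside the rule and Hes1 at −0.95 outside it. One measure of error within these arrays is how far the ratios of a gene's 2 brightest probe sets lie apart. The SD of that difference was divided by the square root of 2. This gave 0.105 from 1 h to 3 h over 5080 genes, and 0.126 over the dimmer 2540 of them. By brightness Dlx2 belongs with these dimmer genes, but it is not 1 of them. The measure leaves out differences between cultures and between hybridisations. Dlx2 had no other probe set to compare with.

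Across all genes measured, 8 of 11685 had a 1 h signal at least 1.5-fold above every other array, 0.0685%, and Dlx2 was 1 of them at 1.74-fold. The others, named after their values were seen, were Swt1, Hes1, Snai1, Klf10, Junb, Neat1 and Dleu2. Values on the 1 h array also chose Dlx2, so its place in this group is a description.

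Dlx1, the neighbour of Dlx2 in its pair, had its highest signal at the same time with a smaller range. Probe set 1449470_at read 7.01 on the control array, 6.84 at 0.5 h, 7.34 at 1 h and 7.03 at 3 h. The 1 h array was again the highest, and the 0.5 h array was the lowest. The log2 ratio to the control was −0.18 at 0.5 h, 0.33 at 1 h and 0.01 at 3 h. From 0.5 h to 1 h it was 0.50, rank 72 from the highest of 11507 genes, and from 1 h to 3 h it was −0.31, rank 293 from the lowest of 11494. None of these reached 2-fold or 1.5-fold. The lowest 2.5% and highest 2.5% of all genes began at −0.31 and 0.35 from 0.5 h to 1 h, and at −0.32 and 0.29 from 1 h to 3 h, so the first step of Dlx1 lay outside that range and the second just inside it.

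Of the genes beside the Dlx1 and Dlx2 pair, 2 had a probe set. Dlx1as, the antisense transcript between them, was under the floor on every array, with values from 2.61 to 2.86. Metap1d, a mitochondrial aminopeptidase gene on the Dlx1 side, read 6.50, 6.66, 6.72 and 6.47 from control to 3 h, for log2 ratios of 0.23 at 1 h against the control and −0.25 from 1 h to 3 h. The labelling protocol primes from the poly-A tail, and whether probe sets read the sense strand was not tested.

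Dlx5, an activator of osteoblast genes, read higher at 1 h and 3 h than on both earlier arrays, by less than 1.5-fold. Probe set 1449863_a_at read 8.09 on the control array, 8.16 at 0.5 h, 8.47 at 1 h and 8.38 at 3 h. The highest array was that at 1 h and the lowest was the control. The log2 ratio to the control was 0.07 at 0.5 h, 0.38 at 1 h and 0.29 at 3 h, at ranks 384 of 11497 and 522 of 11574 from the highest at the later times. The step from 1 h to 3 h was −0.09, under the SD between probe sets. The 1 h and 3 h ratios share the control array, so they are not independent of each other.

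Dlx6, the partner of Dlx5 in its pair and a factor of jaw and limb patterning, lay under the floor on all 4 arrays. Its probe set 1452507_at read 4.64, 4.53, 4.85 and 4.97 from control to 3 h, and no ratio was computed. The noncoding transcripts at the pair, Dlx6os1 and Dlx6os2, were under the floor on all arrays too, with highest values of 3.94 and 3.63. Sdhaf3, an assembly factor gene of a mitochondrial complex that neighbours Dlx5, read 7.13, 7.24, 7.37 and 7.20, for a log2 ratio of 0.24 at 1 h.

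Dlx3, a regulator of bone, tooth and hair genes, gave opposite readings from its 2 probe sets. Probe set 1422037_at read 5.88 on the control array, 5.94 at 0.5 h, 5.51 at 1 h and 5.79 at 3 h, so the 1 h array was the lowest. Probe set 1450475_at read 5.81, 5.62, 5.91 and 5.65 in the same order, so the 1 h array was the highest. The first gave log2 ratios of −0.37 at 1 h against the control, −0.43 from 0.5 h to 1 h and 0.28 from 1 h to 3 h. The second gave 0.10, 0.29 and −0.26. All values of both lay within 0.72 of the floor, and no direction is given for Dlx3. Its pair partner Dlx4 was under the floor on all arrays by both of its probe sets, with values from 3.79 to 4.64, and so was the noncoding Dlx4os. Itga3, an integrin gene on the other side of Dlx3, read between 9.15 and 9.24.

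Msx1, a repressor that keeps mesenchymal progenitors from differentiating, varied little and its 2 probe sets differed in sign after LIPUS. Probe set 1448601_s_at, of a class whose probes can also match related transcripts, read 6.87, 7.07, 7.04 and 6.81 from control to 3 h. Probe set 1417127_at read 6.86, 6.71, 6.78 and 6.67. The first put the control below the 0.5 h and 1 h arrays, and the second put it above all LIPUS arrays. At 0.5 h their log2 ratios to the control were 0.19 and −0.15, and at 1 h they were 0.17 and −0.08. Both were lowest at 3 h, at −0.06 and −0.19 against the control and −0.24 and −0.11 against 1 h.

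Msx2, a repressor with a part in skull and bone growth, was dim on every array and crossed the floor. Probe set 1449559_at read 5.56 on the control array, 5.35 at 0.5 h, 5.15 at 1 h and 5.04 at 3 h. The control array was the highest and the last 2 arrays lay under the floor. Its log2 ratio to the control was −0.22 at 0.5 h, and at 1 h and 3 h it was at least 1.26-fold lower, a bound set by the floor. Probe set 1438351_at, which also carries the name Msx2, read 2.63, 2.96, 3.08 and 3.24 and lay under the floor throughout. Msx3, a relative known from the neural tube, lay within 0.20 of the floor, with values from 5.27 to 5.43.

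By the brightest probe set of each, the members did not move as one. At 0.5 h, 0 of 6 measured members reached 2-fold above the control, as 0.138% of all genes did, and 4 had a ratio above 0. Among these 4, Dlx3 and Msx1 had −0.19 and −0.15 by their other probe sets. No member reached 1.5-fold up or down, as 0.372% and 0.104% of all genes did. At 1 h, 0 of 6 were at least 2-fold higher, where 0.191% of all genes were. Dlx2 was the 1 member at least 1.5-fold higher, where 0.948% of all genes were, and 0 were 1.5-fold lower, where 0.331% were. At 3 h, 0 of 6 were at least 2-fold higher, where 0.0691% of all genes were, and 2 had a ratio above 0. At 1.5-fold, 0 were higher and 0 lower at 3 h, where 0.346% and 0.181% of all genes were. No gene of all those measured was at least 2-fold lower than the control at any time, 0% in each comparison, so that 0 of 6 members were lower has no contrast to set it against. The group median was 0.04 at 0.5 h, 0.25 at 1 h and −0.08 at 3 h on the log2 scale. The medians of all genes were 0.01, 0.02 and 0.01, and 52.7%, 54.7% and 52.2% of all genes had a ratio above 0.

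The steps between LIPUS arrays did not use the control. From 0.5 h to 1 h, 0 of 6 measured members were at least 2-fold higher, where 0.0348% of all genes were, and 0 were at least 2-fold lower, where 0.00869% were. Dlx2 was at least 1.5-fold higher in this step, where 0.348% of all genes were, and 0 members were 1.5-fold lower, where 0.104% were. The group median was 0.14 in this step, and 0.31 over 7 members with the floor at the 25th percentile. From 1 h to 3 h, 1 of 5 measured members, Dlx2, was at least 2-fold lower, where 0.087% of all genes were. Dlx2 was also the 1 member at least 1.5-fold lower, where 0.452% of all genes were, and 0 were at least 1.5-fold higher, where 0.0174% were. This is the contrast that chose Dlx2, so nothing is read from the count. Of the other 4, Dlx1, Dlx5 and Msx1 had ratios from −0.31 to −0.09, and Dlx3 had 0.28 by its brightest probe set. The other probe set of Dlx3 gave −0.26, so the sign of Dlx3 in this step is not settled. The median of the 5 was −0.24, against −0.01 for all genes, of which 45% had a ratio above 0. With the floor at the 25th percentile, which lets in Dlx6 and Msx2, it was −0.11 over 7.

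**Figure D2:**
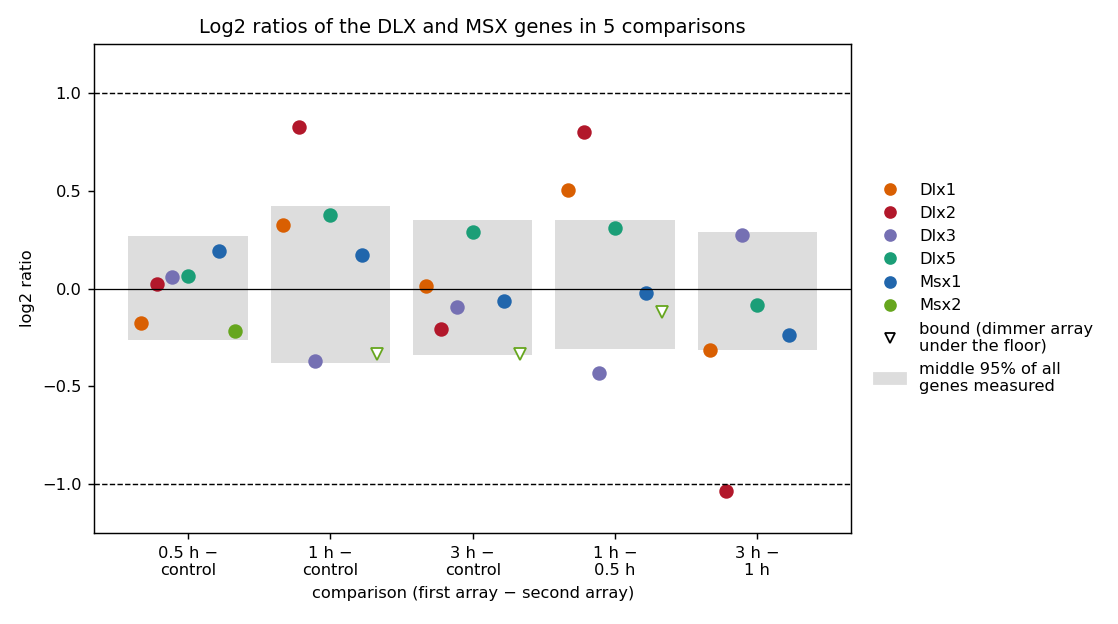
Log2 ratio (vertical axis) of each measured member in 5 comparisons, with grey bands that leave 2.5% of all genes measured on either side, dashed lines at 2-fold and open triangles for bounds. Dlx2 lies above the band in the comparisons of 1 h with control and with 0.5 h, at 0.83 and 0.80, and below it from 1 h to 3 h, at −1.04. Dlx6 is not drawn, since it was under the floor.

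By the deposited values, the course of Dlx2 was most like those of Hes1, Snai1, Junb, Smad7 and Chac1. Likeness was the Euclidean distance between log2 profiles over the 4 arrays, each centred on its own mean, among the other 11013 genes above the floor on all 4 arrays. The distances ran from 0.15 for Hes1, a repressor downstream of Notch, to 0.29 for Chac1, a glutathione-degrading enzyme of the stress response. Snai1, a repressor of epithelial genes, was at 0.20, Junb, an AP-1 subunit, at 0.24, and Smad7, an inhibitor of TGF-beta and BMP receptors, at 0.27.

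These 5 genes were chosen for a course like that of Dlx2, so their highest signal at 1 h follows from the choice. Hes1 read 7.90, 7.89, 8.80 and 7.85 from control to 3 h, and Junb read 8.22, 8.34, 9.10 and 8.32. Chac1 differed from Dlx2 at 0.5 h, where its log2 ratio to the control was 0.38 against 0.03. The second probe set of Smad7 read 7.61, 7.79, 8.41 and 7.57, also with its highest value at 1 h. Of the other members above the floor throughout, Dlx1 ranked 117 by this distance, Msx1 1170, Dlx5 1216 and Dlx3 10866. All these profiles share the same 4 arrays.

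**Figure D3:**
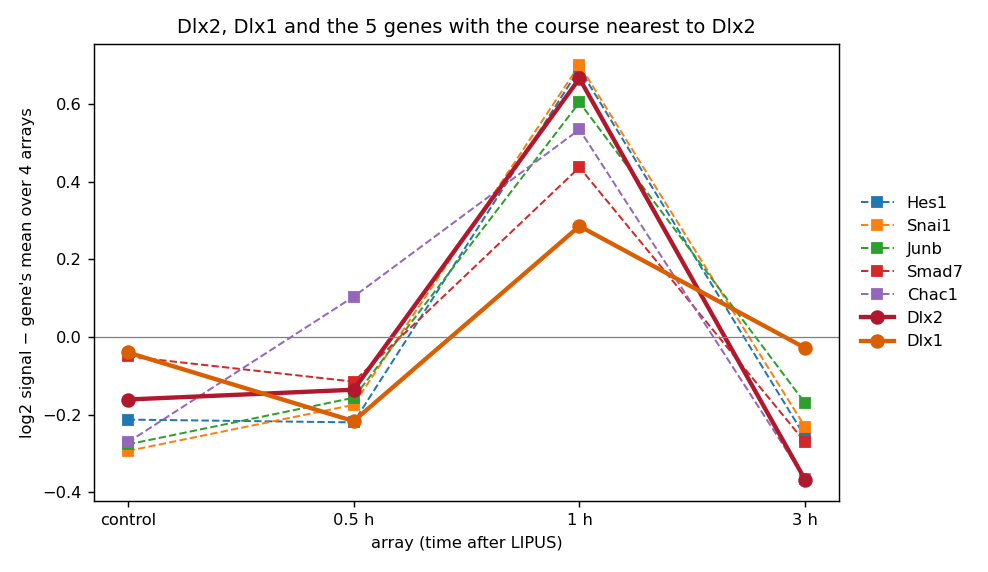
Log2 signal minus the mean of the gene over the 4 arrays (vertical axis) for Dlx2, Dlx1 and the 5 genes nearest in course to Dlx2, with 1 array per point. All 7 lines are highest at 1 h, and the line of Dlx1 is flatter than that of Dlx2, with a log2 ratio of 0.50 against 0.80 from 0.5 h to 1 h.

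Genes of the BMP route, the best known input to DLX and MSX genes, had no member past 2-fold in any comparison. At most 0.191% of all genes were past 2-fold in 1 direction of a comparison, so a count of 0 does not set this route apart. Of 11 ligands and related genes listed, 9 had a probe set and 4 were above the floor. At 1 h, 0 of 4 had a ratio above 0 against the control, where 54.7% of all genes did, and 4 of 4 had one above 0 from 1 h to 3 h, where 45% did. The 1 h array enters both comparisons with opposite signs, so these counts are not independent. Bmp4, a ligand that stromal cells make, read 10.82, 10.64, 10.58 and 11.10 from control to 3 h, for a log2 ratio of 0.52 in the last step. Gdf11, a growth factor of the same family, was the lowest of the list, at −0.43 at 0.5 h. Receptors and SMADs, the route's signal carriers, had 11 of 12 genes measured and medians of −0.02 at 0.5 h, 0.10 at 1 h and 0.12 at 3 h. Their ratios at 1 h ran from −0.23 for the receptor gene Acvr2b to 0.27 for Smurf2, a ligase that degrades SMADs.

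Antagonists and feedback genes of the BMP route had small ratios above 0 at 1 h by their brightest probe sets. Of 14 measured genes, 14 had a log2 ratio above 0, where 54.7% of all genes did, from 0.02 for the antagonist Chrd to 0.50 for Id3. The median was 0.26 against 0.02 for all genes. By the brightest probe set 0 of 14 reached 1.5-fold, where 0.948% of all genes were at least 1.5-fold higher. The second probe set of Smad7 gave 0.80, past 1.5-fold, against 0.49 by its brightest. The sign depended on the probe set for 2 of the 6 genes with another one above the floor on all arrays, Fstl1 and Twsg1. Twsg1, a BMP-binding protein gene, had 0.27 by its brightest and −0.18 and −0.08 by the others. From 1 h to 3 h, 2 of 14 had a ratio above 0 by the brightest probe set, where 45% of all genes did, with a median of −0.14. The sign of Fstl1 and Twsg1 depended on the probe set here too. This step shares the 1 h array with the ratios just given, so the signs of both are tied. In it 2 of 14 were at least 1.5-fold lower, where 0.452% of all genes were. These were Id2, an inhibitor of helix-loop-helix factors, at −0.72 and Smad7 at −0.71, and a second bright probe set of each gave −0.72 and −0.84. Id1 and Smad6, named after their values were seen, had −0.49 and −0.27 in the same step. A higher median of BMP targets at 1 h was known from earlier work on these data when the list was written, so the list adds no independent support for it.

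Among genes that link endothelin to DLX genes in the pharyngeal arch, where the peptide is known to induce Dlx5 and Dlx6, 8 of 12 with a probe set were above the floor on at least 1 array. Edn1, which encodes the ligand, was the 1 gene of the 8 past 2-fold, at 2.66-fold at 0.5 h, where 0.138% of all genes were at least 2-fold higher. It read 7.04, 8.45, 7.82 and 7.51 from control to 3 h, with the highest array at 0.5 h. Any link of Edn1 to Dlx5 or Dlx2 was not tested. Mef2c, a transcription factor in this route, had log2 ratios of 0.01, 0.37 and 0.47 to the control. The receptor gene Ednra had no probe set with 1 symbol and was not analysed here. The other receptor gene, Ednrb, and Hand2, a factor downstream of endothelin, were under the floor on all arrays. The list median was 0.00 at 0.5 h, −0.01 at 1 h and −0.01 at 3 h.

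Proteins that bind or modify DLX and MSX factors had no gene past 2-fold, where at most 0.191% of all genes were in 1 direction of a comparison. Of 14 with a probe set, 11 were measured, with medians of 0.02, 0.10 and 0.09 at 0.5, 1 and 3 h. Maged1, which binds DLX5 and MSX2, read 10.89, 10.90, 10.82 and 10.87. The ratios at 1 h ran from −0.07 for Maged1 to 0.40 for Tle4, a corepressor gene. Runx2 had no probe set with 1 symbol.

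Osteoblast genes known to respond to DLX5 or MSX2 had 5 of 11 genes measured, and none passed 2-fold. Their medians were −0.04, −0.04 and −0.11 at 0.5, 1 and 3 h. Sp7, the osteoblast transcription factor, lay between 5.43 and 5.51, within 0.28 of the floor, and Ibsp, Alpl and Dmp1 were under it on all arrays. Col1a1, the main bone collagen gene, had log2 ratios of −0.06, −0.19 and −0.08, and Cdkn1a, a cell cycle inhibitor, had 0.06, 0.07 and −0.20.

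**Figure D4:**
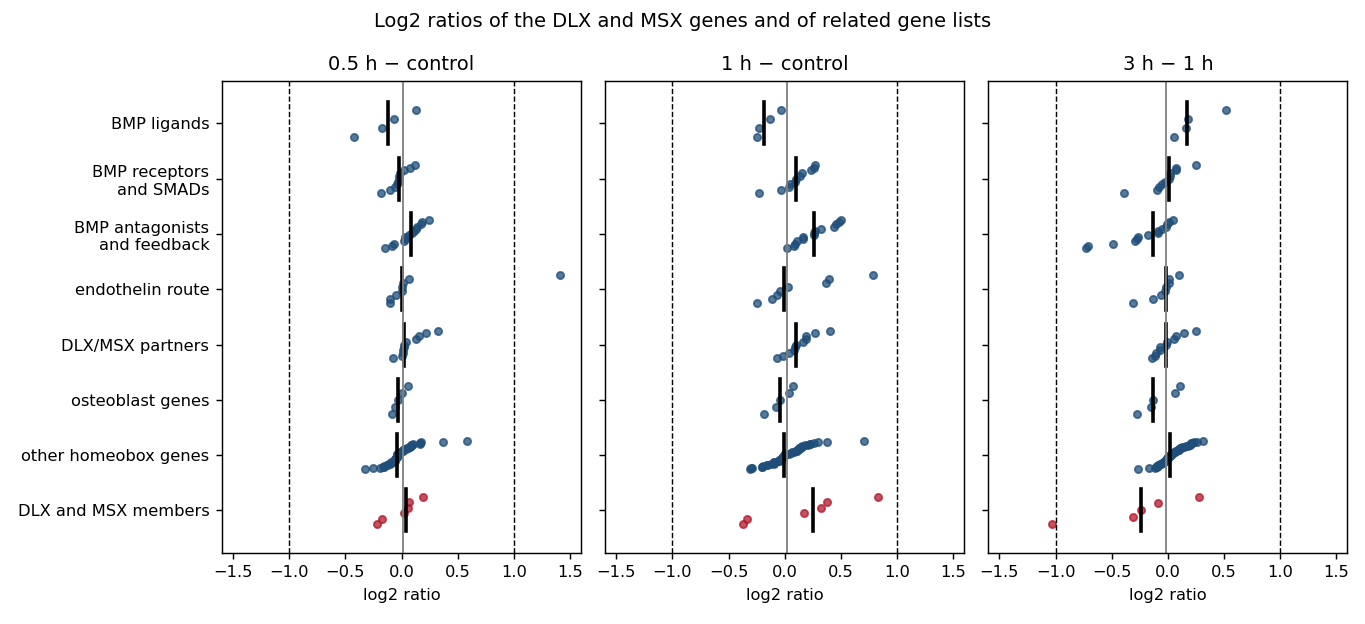
Log2 ratio (horizontal axis) of each measured gene of 7 related lists and of the DLX and MSX members, in 3 comparisons, with list medians as black bars, the median of all genes as a grey line and 2-fold as dashed lines. At 1 h all 14 BMP antagonists and feedback genes lie above 0 by the brightest probe set drawn, though Fstl1 and Twsg1 each have another probe set below 0. The members spread from −0.37 for Dlx3, whose other probe set gave 0.10, to 0.83 for Dlx2.

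The 4 arrays had medians from 5.21 to 5.25 and pairwise correlations across probe sets, which are not replicates, from 0.996 to 0.997. Some control signals were shifted on both later arrays. Spiked bacterial poly-A transcripts had a median log2 ratio to the control of −0.05 at 0.5 h, 0.28 at 1 h and 0.41 at 3 h, with 12 of 12 probe sets higher at both later times. Probe sets for 18S ribosomal RNA, 3 in number, gave medians of 0.96, 1.91 and 1.79, and the signal of the 5′ against the 3′ probe set of Gapdh was −0.06, −0.16 and −0.16 relative to the control. Between 1 h and 3 h, where Dlx2 fell, the poly-A transcripts differed by a median of 0.086. The part of these shifts in the values above was not tested. Of 11 stromal marker genes with a probe set, 10 were above the floor on all arrays, among them Pdgfrb, Cxcl12 and Prrx1, and Thy1 was under it. Ptprc, Pecam1, Adipoq, Gad1 and Gad2, which define blood, endothelial and fat cells and interneurons, were under the floor on all 4 arrays. The T cell gene Cd3e, the endothelial receptor gene Kdr and the neuronal gene Rbfox3 were above it on all 4, with highest values of 6.28, 5.83 and 6.48, and Syn1 on 1. Summed log2 signal above the floor ran from 0.833 to 1.05 for 4 haematopoietic, from 0.278 to 0.598 for 4 endothelial and from 1.11 to 1.36 for 5 neuronal markers, and was 0 for the 2 adipocyte markers.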

How the data were processed

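Total RNA of ST2 cells in 4 groups was measured on 1 array per group. The values the authors deposited, 1 for each probe set, are on a log2 scale; the base was inferred from their range, and probe summary and scaling are not given in the sources used here. Per the labels' protocols, 500 ng of RNA was labelled with a 3′ kit. Of 45101 probe sets, 34958 had 1 gene symbol in the platform annotation and 932 several; 34754 symbols were updated by Entrez number to GRCm38.p6 RefSeq names. The brightest probe set stood for each gene. Values at or under 5.23, the median, were raised to that floor; a ratio with 1 floored array is a bound, and with 2 none was computed. A log2 ratio of 1 or more in size counted as a change, with no test. The calculation of ratios and calls was checked on simulated data with known fold changes, which says nothing of the spread between cultures. Members, lists and alternatives were chosen with earlier results of these data known. Named genes were the members, their relatives and neighbours, list members past 2-fold or otherwise highest or lowest, and the 5 nearest profiles; others were named after their values were seen. In list accounts, further genes illustrate a list's role. Alternatives covered the floor, scaling, probe sets, fold and reference array. Python 3.11.15, numpy 2.4.6, pandas 2.3.3, R 4.3.3 and limma 3.58.1 (cyclic loess only) were used.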

Additional observations from a re-analysis of the deposited data

How the results depend on the processing

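The fall of Dlx2 from 1 h to 3 h stayed past 2-fold under the 3 other scalings, between −1.07 after centring and −1.01 after quantile normalization. Its log2 ratio at 1 h against the control stayed between 0.80 and 0.85 under every alternative that kept the control as reference and gave a value. With the floor at the 75th percentile Dlx2 lay under it on all arrays, so 0 members were lower from 1 h to 3 h, and Edn1 was then not past 2-fold, leaving 0 genes of the endothelin list higher at 0.5 h. At 3-fold, 0 members were lower in that step, since the fall of Dlx2 was 2.05-fold. No share of all genes is given for 3-fold or the 75th percentile floor, so nothing is read from those counts. At 1.5-fold, 1 member was higher at 1 h against the control, where 0.948% of all genes were. From 0.5 h to 1 h 1 member was higher at 1.5-fold, where 0.348% of all genes were. Against the mean of the other 3 arrays, Dlx2 was at −0.18 at 0.5 h, where it had been slightly above the control, at 0.89 at 1 h and at −0.49 at 3 h. The group median moved with how many members were measured. From 0.5 h to 1 h the value went from 0.14 to 0.31 for a floor at either the 25th or 75th percentile, for no floor, and for the mean of all probe sets. The 0.31 was the ratio of Dlx5 in each of these settings. From 1 h to 3 h the group median went from −0.24 to −0.11 for a floor at the 25th percentile or none. At the 75th percentile Dlx5 alone was measured, so the median was its ratio, at −0.086 from 1 h to 3 h and 0.29 at 3 h against the control. The same 5 genes stayed nearest to Dlx2 under the 3 other scalings, a check added after the data were seen, as was counting every probe set of a member on its own, which left the counts past 2-fold as they were. For Dlx3 and Msx1 the choice of probe set changed the sign, as given with their values. No paired analysis was possible because each group has 1 array.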

Other observations

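Homeobox genes outside the DLX, MSX and HOX families had no gene past 2-fold in any comparison. The largest share of all genes past 2-fold in 1 direction of a comparison was 0.191%, so a count of 0 does not set this list apart. Of 92 listed, 82 had a probe set with 1 symbol and 52 were above the floor on at least 1 array. Their medians were −0.04 at 0.5 h over 48 measured genes, 0.00 at 1 h over 48 and 0.06 at 3 h over 52, against 0.01, 0.02 and 0.01 for all genes.

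Six4, a homeobox gene of muscle and sensory progenitors, had the highest ratio of the list at 1 h and, by its brightest probe set, at 3 h. Its brightest probe set read 7.87 on the control array, 8.23 at 0.5 h, 8.58 at 1 h and 8.31 at 3 h. The log2 ratios were 0.37, 0.71 and 0.44, and the other 2 probe sets above the floor gave 0.56 and 0.63 at 1 h. The 1 h array was the highest by all 3. At 3 h those other 2 gave 0.19 and 0.26, below Zfhx4 at 0.39. Six4 was the 1 gene of 48 at least 1.5-fold higher at 1 h, where 0.948% of all genes were. Zfhx3, a large zinc finger and homeodomain factor, had the highest ratio from 0.5 h to 1 h, at 0.39, and its other 5 probe sets gave between 0.30 and 0.43. Cdx2, at 0.58 at 0.5 h, lay near the floor on the control array, at 5.24, and its other probe set gave 0.11. From 0.5 h to 1 h Cdx2 was the 1 gene of 47 at least 1.5-fold lower, where 0.104% of all genes were, a bound because its 1 h signal was under the floor. Hmbox1 had the lowest ratio at 0.5 h, −0.33, while another of its probe sets gave 0.09.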
